A study of Caenorhabditis elegans with 24 samples.

Results

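Insulin-like peptide genes encode small secreted hormones that bind the insulin/IGF-1 receptor DAF-2, and they were followed here across 24 RNA libraries of whole Caenorhabditis elegans. The members are all genes named ins with a number in the WBcel235 annotation, plus daf-28, that appear in the deposited expression values. Of 39 annotated genes that match, 37 were present, among 20549 genes in all, and ins-8 and ins-15 were not among the measured genes. In the worm, most of these peptides are made by neurons, intestine or hypodermis. An agonist activates DAF-2 and keeps the transcription factor DAF-16 out of the nucleus, whereas an antagonist or a weakened receptor lets DAF-16 act, which favours dauer entry, stress resistance and long life.

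Young adult hermaphrodites on their first adult day, grown at 20 °C on OP50-1 bacteria, were sampled for 6 genotypes with 4 libraries each. The mutants were daf-2(e1370);bcl-11(bon144), daf-2(e1370);bcl-11(bon125), bcl-11(bon144) and bcl-11(bon125), and their controls were daf-2(e1370), a temperature-sensitive receptor mutant, and wt (N2). BCL-11 is a zinc finger transcription factor, and both alleles are viable, gene-edited hypomorphs in backcrossed lines. The bon144 allele is an in-frame deletion with an insertion in a conserved domain, and bon125 is a frameshift that adds residues and leaves the zinc fingers in place. The replicate number equals the batch in the labels, so every genotype had 1 library in each batch. Nothing states whether batches were grown separately, so p-values cover the spread between these libraries only.

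Values are regularized log (rlog) expression on a log2 scale, in which the differences of weakly expressed genes are drawn towards 0. The 12 libraries with daf-2(e1370) and the 12 libraries without it were normalised separately, so tests compare genotypes of 1 background, or the mutant effects found within each background, and a level in one background beside a level in the other is a description. Both alleles of a background were set against the same 4 control libraries. Sequencing depth is unknown. On the first principal component of the wild-type background (43.3% of the variance) the bcl-11(bon144) libraries lay at -33.8, 29.5, 62.7 and -11.7, with the other 8 between -16.9 and 5.09, and in the daf-2 background daf-2 replicate 4 lay at 40.7 with the other 11 between -15.7 and 10.5.

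The members were small genes in a few tight runs. Their annotated peptides had 67 to 218 residues (median 100), and their transcripts had a median of 429 nt, against 1151 nt for all genes measured. By chromosome, 14 members lay on II, 10 on I, 5 on III, 3 each on IV and V, and 2 on X. Within gaps of at most 50000 bp, 5 runs held 21 of the 37 members. The longest, ins-28, ins-29, ins-25, ins-27, ins-24, ins-30 and ins-26, occupied chromosome I from 14012369 to 14037777. Next came ins-2, ins-3, ins-4, ins-5, ins-6 and ins-20 on chromosome II from 5988524 to 6011321, and then ins-13, ins-12 and ins-11 (II, 5544512 to 5557173) and ins-21, ins-22 and ins-23 (III, 10023752 to 10028697). The pair ins-19 and ins-31 lay on II from 3126037 to 3127831. No member had values identical to those of another gene. In these non-stranded libraries, reads from exon bases shared between genes can come from either gene, whatever its strand, and 5 members share a part of their exon bases. They are ins-10 (74 of 392 exon bases, with vps-39 on the other strand), ins-13 (87 of 308, with acdh-2), ins-34 (82 of 507, with nkcc-1), ins-36 (57 of 544, with Y53H1A.7 and anr-40) and ins-37 (192 of 955, with F08G2.9 and R05D7.8).

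To see how many members were expressed strongly enough to be tested, the mean rlog over the 12 libraries of a background was used, with 3 as the minimum. In the daf-2 background 22 of 36 measured members (61.1%) reached it, against 71.9% of all genes. In the wild-type background 20 of 33 (60.6%) did, against 69.7% of all genes. The gap was wider at a higher level, since 7 of 36 members (19.4%) in the daf-2 background and 1 of 33 (3.03%) in the wild-type background reached a mean rlog of 7, against 41.3% and 39.5% of all genes. In both backgrounds 18 members passed the minimum of 3. Another 4 passed only with daf-2(e1370), namely ins-10, ins-12, ins-18 and ins-35, and 2 passed only without it, namely ins-7 and ins-19. The remaining 13 passed in neither, and they include daf-28 and ins-1. Members below the minimum hardly varied between libraries: over 12 libraries their rlog ranged by a median of 0.14 in the daf-2 background and 0.36 in the wild-type background. The widest range among them was 1.31, for ins-31 in the wild-type background, with 3.53 in wt replicate 3 and 3.36 in bcl-11(bon144) replicate 2 and 2.23 to 2.26 elsewhere. ins-31 was measured in the wild-type background only, and ins-16, ins-20, ins-21 and ins-25 in the daf-2 background only.

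The order of the members differed between the backgrounds. Levels of different genes were compared per length, as the mean rlog minus the log2 of the transcript length in kb. In the daf-2 background ins-22 (11.72), ins-23 (11.10), ins-11 (9.97) and ins-33 (9.90) headed the order and ins-37 (4.01) closed it. In the wild-type background ins-3 (7.91), ins-22 (7.58) and ins-33 (7.00) came first, ins-23 was eighth with 6.17 and ins-37 was again last with 3.64. Neighbours such as ins-11 and ins-33 in the daf-2 background differed by less than the SD of either gene between libraries, which was 0.82 for ins-11 and 0.31 for ins-33 in daf-2. Before correction for length, the highest mean rlog values were those of ins-22 (10.15), ins-23 (9.75) and ins-33 (8.96) in the daf-2 background and of ins-3 (7.15), ins-33 (6.06) and ins-22 (6.02) in the wild-type background.

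**Figure D1:**
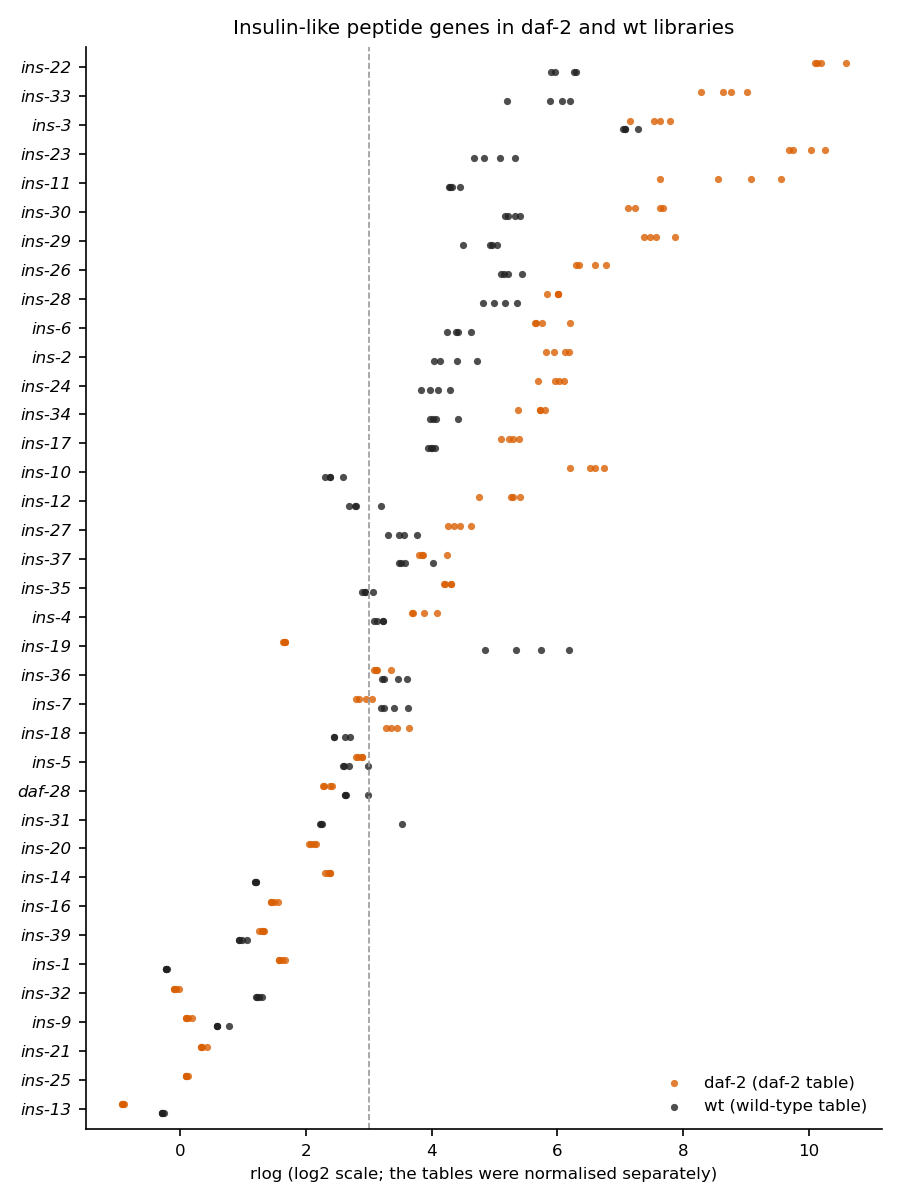
Rlog (horizontal axis, log2 scale) of all 37 insulin-like peptide genes in the 4 daf-2 libraries (orange, upper points) and the 4 wt libraries (black, lower points), ordered by mean level, with the minimum mean rlog of 3 as a dashed line. The daf-2 points of ins-22, ins-23, ins-11 and ins-10 lie far to the right of the wt points, those of ins-19 lie to the left, and genes near the bottom show almost no spread.

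Next, the levels in daf-2 were set beside those in wt, to describe how expression of the ligands differs when the receptor is impaired. Among the 18 members above the minimum in both backgrounds, 12 had a mean rlog more than 1 higher in daf-2 than in wt, against 10.4% of the 13131 genes kept in both, and 0 were more than 1 lower, against 2.45% of those genes. The median difference over the 18 members was 1.47, against 0.03 over all genes. In all, 17 of the 18 were higher in daf-2 by any amount, against 52.6% of genes, and for 1, ins-36, the difference was -0.21. Over all 12 libraries of each background, 15 of the 18 had every daf-2 background library above every wild-type background library, as had 16.9% of genes, and 0 had every one below, as had 5.34%. The other 3, ins-3, ins-36 and ins-37, overlapped. The same count of members more than 1 higher was 13 in daf-2;bcl-11(bon144) set beside bcl-11(bon144), against 10.5% of genes, and it was 12 for daf-2;bcl-11(bon125) set beside bcl-11(bon125), against 11.6% of genes. These are levels from separately normalised tables and not tests.

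Without the minimum, 32 members could be set side by side. Of these, 17 were more than 1 higher in daf-2, against 16.0% of 18489 genes, and 2 (ins-19 and ins-32) were more than 1 lower, against 4.65%. All daf-2 background libraries lay above all wild-type background libraries for 22 members, against 27.5% of genes, and below them for 6, against 11.9%. Those 6 were daf-28, ins-7, ins-9, ins-13, ins-19 and ins-32. For the weakest of them, such as ins-13 at -0.91 in daf-2 and -0.28 in wt, the libraries of a genotype were nearly alike, and such a difference cannot be told apart from the offset between the tables. The gene that shares exon bases with ins-13, acdh-2, was also lower in daf-2, at 7.66 ± 0.48, against 9.03 ± 0.23 in wt (SD, n = 4 each), and its part in the ins-13 values was not tested.

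The neighbours ins-22 and ins-23, the highest members in the daf-2 background, were among those with the largest differences. ins-23 (WBGene00002106, III, 10028247 to 10028697, plus strand) had an rlog of 9.68, 10.03, 9.75 and 10.26 in daf-2, against 4.84, 5.10, 4.67 and 5.32 in wt, a difference of means of 4.95. ins-22 (WBGene00002105, III, 10026289 to 10026686, plus strand), whose fluorescent fusion is widely used to follow neuronal dense core vesicles, had 10.20, 10.09, 10.13 and 10.59 in daf-2, against 5.91, 5.96, 6.26 and 6.30 in wt, a difference of 4.14. In both genes every daf-2 library was over 3 above every wt library. The first gene of the run, ins-21, was at 0.34 to 0.43 in daf-2 and is among the genes measured only in that background, so the high level did not extend along the whole run.

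ins-11 (WBGene00002094, II, 5556731 to 5557173, plus strand), known for its induction in the intestine during infection, had 7.63, 9.07, 8.56 and 9.56 in daf-2, against 4.30, 4.28, 4.46 and 4.33 in wt, a difference of 4.37. Its daf-2 libraries spread over almost 2 units, while the wt libraries were close together. Its neighbour ins-12 had 5.18 ± 0.29 in daf-2, against 2.87 ± 0.23 in wt (SD, n = 4 each), but ins-12 did not reach the minimum without daf-2(e1370). ins-10 (WBGene00002093, V, 14033949 to 14034396, plus strand) had 6.75, 6.53, 6.19 and 6.60 in daf-2, against 2.38, 2.38, 2.60 and 2.30 in wt, a difference of 4.10. The gene that overlaps ins-10, vps-39, stood at 11.45 ± 0.25 in daf-2 and 11.49 ± 0.19 in wt (SD, n = 4 each), and its part in the ins-10 values was not tested. ins-33 (WBGene00002116, I, 13637845 to 13639311, minus strand) had 8.77, 9.02, 8.63 and 8.28 in daf-2, against 5.20, 6.07, 6.21 and 5.88 in wt, a difference of 2.83. In the run on chromosome I the difference was 2.72 for ins-29, 2.14 for ins-30, 1.89 for ins-24, 1.28 for ins-26, 0.90 for ins-27 and 0.88 for ins-28, all higher in daf-2 but by unequal amounts.

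In the other direction, ins-19 (WBGene00002102, II, 3126037 to 3126441, minus strand) had 1.65, 1.63, 1.66 and 1.66 in daf-2, against 6.18, 5.74, 5.35 and 4.85 in wt, a difference of -3.88. Over the 3 genotypes of each background it lay between 1.58 and 1.68 with daf-2(e1370) and between 4.43 and 6.18 without it, so no library of one background came near those of the other. With daf-2(e1370) the ins-19 libraries were nearly alike (SD 0.01 in daf-2), as those of other weak members. The size of the difference therefore depends on where rlog places weak genes in each background. ins-7, the other member that passed the minimum only without daf-2(e1370), was close to 3 in both backgrounds. The gene next to ins-19, ins-31, was measured only in the wild-type background.

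The agonists with the best known roles did not differ in 1 direction. DAF-28, INS-4 and INS-6 are neuronal agonists that act against dauer entry, and INS-7 is an agonist made in the intestine whose gene is repressed by DAF-16. ins-6 had 5.65, 5.76, 6.20 and 5.66 in daf-2, against 4.38, 4.63, 4.41 and 4.24 in wt, a difference of 1.40. ins-4 had 3.88, 3.69, 4.09 and 3.70 in daf-2, against 3.14, 3.22, 3.22 and 3.08 in wt, a difference of 0.67. ins-7 had 3.05, 2.79, 2.85 and 2.96 in daf-2, against 3.63, 3.41, 3.24 and 3.20 in wt, a difference of -0.46. daf-28 had 2.39, 2.27, 2.41 and 2.28 in daf-2, against 2.62, 2.62, 2.98 and 2.63 in wt, a difference of -0.38. Thus ins-6 and ins-4 were higher in daf-2 in all libraries and ins-7 and daf-28 lower in all libraries, with ins-7 and daf-28 at weak levels where rlog leaves little of a difference.

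The antagonists INS-1 and INS-18, which oppose the agonists at the receptor, were weak. ins-18 had 3.65, 3.45, 3.27 and 3.35 in daf-2, against 2.45, 2.70, 2.62 and 2.44 in wt, a difference of 0.88. ins-1 had 1.61, 1.58, 1.57 and 1.68 in daf-2, against -0.23, -0.23, -0.20 and -0.23 in wt. Each genotype's libraries were within 0.11 of each other for ins-1, and ins-1 is among the members below the minimum in both backgrounds. The smallest differences among the 18 members were those of ins-36 (3.17 ± 0.12 in daf-2, against 3.38 ± 0.19 in wt), ins-37 (3.94 ± 0.21, against 3.65 ± 0.25) and ins-3 (7.53 ± 0.27, against 7.12 ± 0.11; SD, n = 4 each). ins-3 was thus the strongest member in wt while 5 others were above it per length in the daf-2 background.

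Tissue markers were set beside these differences. The mean rlog over 8 neuron markers was 6.49 to 6.84 in daf-2 libraries and 5.81 to 5.93 in wt libraries. Of these, 6 were higher in daf-2, with the largest difference in unc-13 (2.18), and 2 (rab-3 and sng-1) differed by -0.06. Over 6 hypodermis markers the mean was 8.92 to 9.11 in daf-2 and 7.89 to 8.38 in wt, and the markers were uneven. The 2 more than 1 higher in daf-2 were the collagen gene dpy-7, at 8.54 in daf-2 and 4.96 in wt, and nhr-25, at 7.96 in daf-2 and 6.46 in wt. lin-26 stood at 10.16 in daf-2 and 10.13 in wt, and the adult collagen gene col-19 was lower in daf-2, at 14.50 against 15.47 in wt. For 7 intestine markers the ranges were 9.92 to 10.35 in daf-2 and 9.69 to 10.29 in wt, and 4 of the 7 were higher in daf-2. Their differences ran from -1.02 (pho-1) to 1.32 (ges-1). For 6 germline markers they were 11.58 to 12.20 in daf-2 and 12.35 to 12.81 in wt, with all 6 lower in daf-2. The mean levels of the neuron, hypodermis and intestine lists were well above 0 in both genotypes, and the library ranges of the intestine list overlapped. In whole worms more cells of a type and more RNA per cell cannot be told apart, and the part of these marker levels in the differences of the insulin-like peptide genes was not tested. Genes for peptide processing and release averaged 8.96 to 9.06 in daf-2 and 8.53 to 8.75 in wt (9 genes, among them the convertase genes kpc-1 and egl-3). Of these, 7 were higher in daf-2, with the largest difference in kpc-1 (1.05), and 2 were lower. The 13 genes from the receptor to DAF-16 averaged 9.67 to 9.77 in daf-2 and 9.49 to 9.55 in wt. They were uneven, with 7 higher in daf-2, of which akt-2 (1.54) and ist-1 (1.01) were more than 1 higher, and 6 lower.

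**Figure D2:**
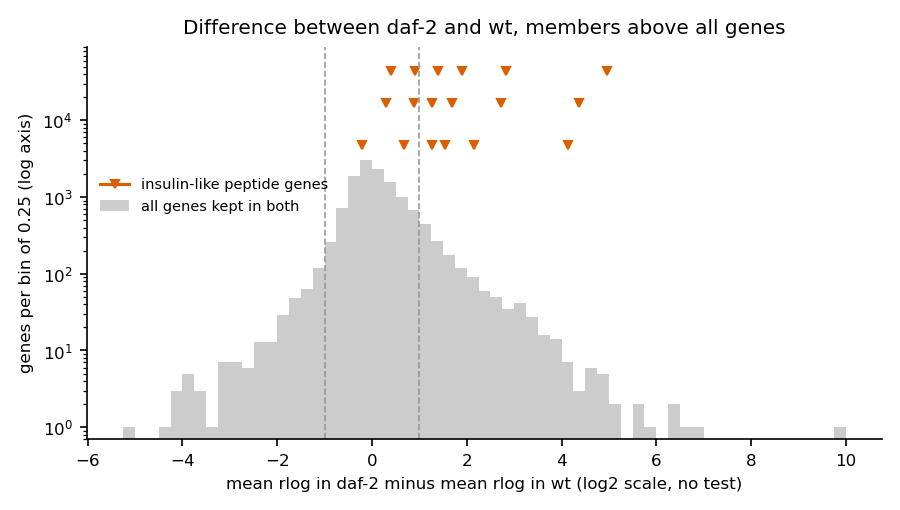
Number of genes (vertical log axis, bins of 0.25) by the mean rlog in daf-2 minus the mean rlog in wt, for 13131 genes kept in both tables, with the 18 insulin-like peptide genes as triangles above (their height has no meaning) and dashed lines at -1 and 1. The members lie to the right of the bulk of genes, 12 of them beyond 1 and none beyond -1.

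The main question of the design, whether bcl-11 mutations change expression, was then asked of the ligand genes within each background. A gene was called at an adjusted p under 0.05 (limma, Benjamini-Hochberg over all kept genes, two-sided) with a change of more than 1.5-fold in either direction. No member was called in any of 8 comparisons, and the intervals show how large a change on the rlog scale could have been present. Rlog draws the differences of weak genes towards 0, so for weak members the change in RNA could be larger than these intervals.

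In bcl-11(bon125) against wt, 0 of 20 members were called, as 0% of the 13459 genes tested, and 0 had an unadjusted p under 0.05, against 1.55% of genes. Over all genes the lowest limma adjusted p was 0.0778. The paper reports more dysregulated genes than were called here, in this comparison and in both double mutants. The share of genes called in these fits is therefore no measure of how many genes changed. Likewise, a member without a call cannot be taken as unchanged. The members' log2 fold changes ran from -0.58 to 0.21 with a median of -0.01. For 19 of the 20 the 95% interval lay within 1 of 0 on the log2 scale, and for 16 within a 1.5-fold change. No member separated the 4 mutant from the 4 wt libraries, as 1.95% of genes did. Within batches, 2 members (ins-11 and ins-19) had the same sign in all 4 pairs of libraries, as had 11.4% of genes. The largest change was that of ins-19, with 5.25, 5.11, 4.89 and 4.57 in bcl-11(bon125), against 6.18, 5.74, 5.35 and 4.85 in wt. Its log2 fold change of -0.58 had an interval of -1.23 to 0.08 (limma adjusted p 1.00), and the groups overlapped. It was -0.36 without wt replicate 1 and -0.80 without wt replicate 4. ins-2 (-0.30, SE 0.20; -0.17 without wt replicate 1) and ins-6 (0.21, SE 0.19) came next. The ins-6 interval ran from -0.19 to 0.61, and ins-6 was 4.10 in replicate 1 and 4.77 to 4.84 in the other bcl-11(bon125) libraries, without which replicate the log2 fold change was 0.38. That library was the lowest of its genotype for 11 of the 20 members.

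In bcl-11(bon144) against wt, 0 of 20 members were called, against 0.0669% of genes, and 1 had an unadjusted p under 0.05, against 7.10% of genes. Log2 fold changes ran from -0.50 to 0.67 with a median of -0.03, and 18 of 20 intervals lay within 1 of 0. None of the members separated the groups, as 4.13% of genes did. Within batches, 5 members had the same sign in all 4 pairs of libraries, as had 16.6% of genes, with ins-2, ins-17, ins-22 and ins-23 lower and ins-33 higher in bcl-11(bon144). With the replicate block, 3 members (ins-23, ins-28 and ins-33) had an unadjusted p under 0.05 in place of 1, against 8.14% of genes, and none was called. The member with the low p was ins-23, with 4.38, 4.73, 4.36 and 4.47 in bcl-11(bon144), against 4.84, 5.10, 4.67 and 5.32 in wt (log2 fold change -0.50, SE 0.15, limma adjusted p 0.448). In bcl-11(bon144), ins-23 was below wt in each of the 4 batches, while replicate 2 of bcl-11(bon144) was above wt replicate 3. The largest log2 fold change was that of ins-33, with 6.33, 6.29, 7.34 and 6.09 in bcl-11(bon144), against 5.20, 6.07, 6.21 and 5.88 in wt (0.67, SE 0.33, limma adjusted p 0.730). It was 0.40 without replicate 3 of bcl-11(bon144), which is one of the libraries that stood apart. ins-19 had 5.02, 4.88, 4.43 and 5.81 in bcl-11(bon144), against 6.18, 5.74, 5.35 and 4.85 in wt (-0.50, SE 0.30), with overlapping groups. Its log2 fold change was -0.28 without wt replicate 1, -0.30 without bcl-11(bon144) replicate 3 and -0.75 without bcl-11(bon144) replicate 4. When replicates 2 and 3 of bcl-11(bon144) were left out together, a choice made after seeing the data, 0 members passed the test, and the log2 fold change was -0.56 for ins-23, 0.37 for ins-33 and -0.12 for ins-19.

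In daf-2;bcl-11(bon125) compared with daf-2, 0 of 22 members were called, against 0.0141% of the 14169 genes, and 1 had an unadjusted p under 0.05, against 4.11% of genes. The median log2 fold change was -0.03 and the range -0.26 to 0.75, with 20 of 22 intervals within a 1.5-fold change. No member separated the groups, as 1.77% of genes did. Within batches, 2 members (ins-33 and ins-35) had the same sign in all 4 pairs of libraries, as had 8.97% of genes. ins-33 had 9.39, 10.67, 8.91 and 8.73 in daf-2;bcl-11(bon125), against 8.77, 9.02, 8.63 and 8.28 in daf-2 (0.75, SE 0.34, limma adjusted p 1.00). Most of that difference came with 1 library, since without replicate 2 of daf-2;bcl-11(bon125) the log2 fold change was 0.34. With the replicate block the SE of ins-33 was 0.21 (limma unadjusted p 0.00408, adjusted p 0.983). It was still the 1 member with an unadjusted p under 0.05, against 4.74% of genes. ins-11 followed with -0.26 (SE 0.39, interval -1.11 to 0.58), and without replicate 4 of daf-2 it was 0.02. ins-35 had 4.43, 4.98, 4.35 and 4.24 in daf-2;bcl-11(bon125), against 4.31, 4.32, 4.22 and 4.20 in daf-2 (0.24, SE 0.13). Replicate 2 was again the high library, and without it the log2 fold change was 0.08.

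In daf-2;bcl-11(bon144) compared with daf-2, 0 of 22 members were called, against 0.0565% of genes, while 2 had an unadjusted p under 0.05, against 3.47% of genes. These were the neighbours ins-22 and ins-23, and both separated the groups, as 2.31% of genes did. They were also the 2 members with the same sign in all 4 batches, as had 11.0% of genes. ins-23 had 9.54, 9.28, 9.35 and 9.59 in daf-2;bcl-11(bon144), against 9.68, 10.03, 9.75 and 10.26 in daf-2 (log2 fold change -0.49, interval -0.81 to -0.17, limma adjusted p 1.00). ins-22 had 9.87, 9.93, 9.89 and 9.79 in daf-2;bcl-11(bon144), against 10.20, 10.09, 10.13 and 10.59 in daf-2 (-0.38, interval -0.64 to -0.13, limma adjusted p 1.00). All mutant values were below all control values in both genes, with narrow gaps between the groups. Replicate 4 of daf-2, at 40.7 on the first principal component, was the highest control library for both genes. Without it the log2 fold change was -0.38 for ins-23 and -0.27 for ins-22. ins-29 had the next largest log2 fold change, -0.21 (SE 0.16), which was -0.11 without daf-2 replicate 4. The other 19 members ranged from -0.06 to 0.13, and all 22 intervals lay within 1 of 0.

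**Figure D3:**
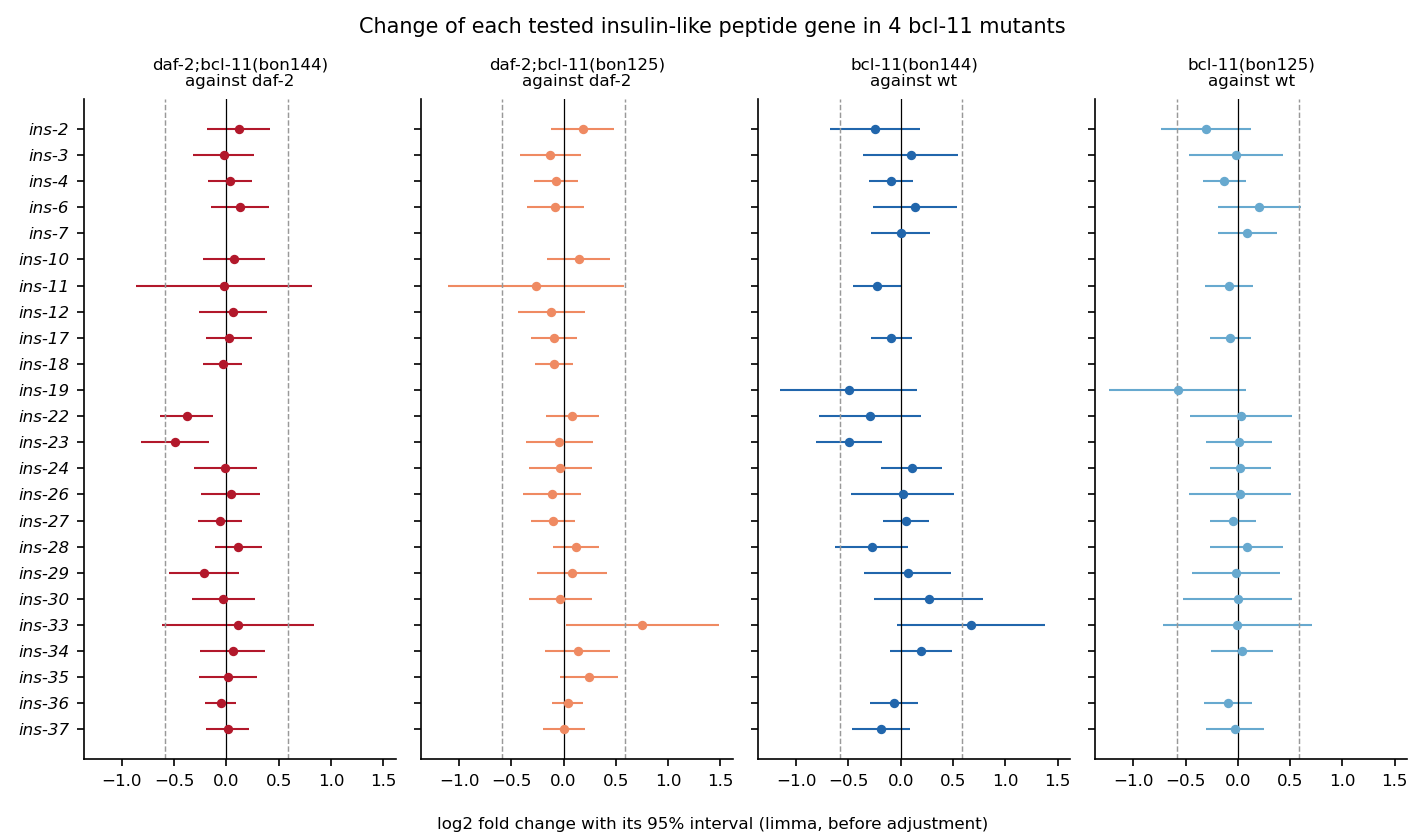
Log2 fold change (horizontal axis) with its 95% limma interval, not adjusted for the number of genes, of every tested insulin-like peptide gene in the 4 bcl-11 mutants against their controls. Dashed lines mark 1.5-fold changes, and most points lie near 0. ins-22 and ins-23 are to the left with bon144, ins-33 to the right with bon144 in the wild-type background and with bon125 in the daf-2 background, and none was called.

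The 3 agonist genes that were in the main fits, ins-6, ins-4 and ins-7, had log2 fold changes between -0.13 and 0.21 in the mutants. ins-6 had 6.04, 5.78, 6.05 and 5.91 in daf-2;bcl-11(bon144) and 5.62, 5.80, 5.65 and 5.88 in daf-2;bcl-11(bon125), beside 5.65 to 6.20 in daf-2, with log2 fold changes of 0.13 and -0.08 (SE 0.13 each). In the other background ins-6 had 4.14, 4.66, 4.87 and 4.54 in bcl-11(bon144), beside 4.24 to 4.63 in wt (0.14, SE 0.19), and its log2 fold change with bon125, given above, was the largest of these (0.21). ins-4 had log2 fold changes of 0.04 and -0.08 with bon144 and bon125 in the daf-2 background and -0.09 and -0.13 in the wild-type background (SE 0.10 each). For both genes the mutant and control libraries overlapped in each comparison. ins-7 had 3.64, 3.18, 3.43 and 3.22 in bcl-11(bon144) and 3.39, 3.45, 3.70 and 3.29 in bcl-11(bon125), beside 3.20 to 3.63 in wt, and the bon125 log2 fold change was 0.09 (SE 0.13). daf-28 was below the minimum and so not in the main fits. It was at 2.35 ± 0.03 in daf-2;bcl-11(bon144) and 2.36 ± 0.05 in daf-2;bcl-11(bon125), against 2.34 ± 0.07 in daf-2. In the wild-type background it was at 2.91 ± 0.21 in bcl-11(bon144), 2.75 ± 0.12 in bcl-11(bon125) and 2.71 ± 0.18 in wt (SD, n = 4 each).

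Of the antagonists, ins-18 was tested in the daf-2 background, where it had 3.25, 3.48, 3.51 and 3.33 in daf-2;bcl-11(bon144) and 3.26, 3.44, 3.37 and 3.28 in daf-2;bcl-11(bon125), beside 3.27 to 3.65 in daf-2 (-0.04 and -0.09, SE 0.09 each). The libraries overlapped here as well. ins-1 was not in the main fits and stayed between 1.56 and 1.68 in all libraries with daf-2(e1370) and between -0.23 and -0.13 in all others.

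The other members that stood high in daf-2 had values in the double mutants that overlapped with those of daf-2. ins-10 had 6.70, 6.61, 6.70 and 6.34 in daf-2;bcl-11(bon144) and 6.42, 6.63, 6.90 and 6.68 in daf-2;bcl-11(bon125), beside 6.19 to 6.75 in daf-2 (0.07 and 0.14, SE 0.14 each). ins-11 had 8.13, 9.06, 9.48 and 8.08 in daf-2;bcl-11(bon144), beside 7.63 to 9.56 in daf-2 (-0.02, SE 0.39). Both genes overlapped between mutant and control libraries. In the run on chromosome I, ins-29 had 7.36 ± 0.18 in daf-2;bcl-11(bon144), 7.66 ± 0.31 in daf-2;bcl-11(bon125), against 7.57 ± 0.21 in daf-2. The same gene had 4.92 ± 0.38 in bcl-11(bon144), 4.84 ± 0.25 in bcl-11(bon125) and 4.85 ± 0.24 in wt. ins-30 had 7.39 ± 0.11, 7.39 ± 0.19 and 7.42 ± 0.28 in the daf-2 background in that order of genotypes, and 5.54 ± 0.47, 5.28 ± 0.46 and 5.28 ± 0.11 in the wild-type background (SD, n = 4 each). In ins-24, ins-26 and ins-27 every mutant log2 fold change lay between -0.11 and 0.11. ins-3, the member with the highest level in wt, had 8.00, 6.92, 6.85 and 7.09 in bcl-11(bon144), beside 7.05 to 7.29 in wt (0.10, SE 0.21), so 1 library was high and the other 3 were not.

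Next, bon144 was set against bon125. In daf-2;bcl-11(bon144) compared with daf-2;bcl-11(bon125), 0 of 22 members were called, against 0.0494% of genes, and 2 had an unadjusted p under 0.05, against 3.24%. Again these were ins-22, with 9.79 to 9.93 in daf-2;bcl-11(bon144), against 10.15 to 10.55 in daf-2;bcl-11(bon125) (-0.47, SE 0.12, limma adjusted p 0.899), and ins-23, with 9.28 to 9.59, against 9.64 to 10.27 (-0.45, SE 0.15, limma adjusted p 1.00). Both genes separated the groups, as 3.05% of genes did. ins-33 had the largest log2 fold change, -0.64 (SE 0.34), with overlapping groups. With the replicate block the SE of ins-33 was 0.21 (limma unadjusted p 0.0106, adjusted p 0.999). Then 3 members, ins-22, ins-23 and ins-33, had an unadjusted p under 0.05, against 3.46% of genes, and none was called. The bon144 libraries are the same as in the comparison with daf-2, so this comparison is not a second measurement of them.

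In bcl-11(bon144) against bcl-11(bon125), 0 of 20 members were called, against 0.0446% of genes, and 2 had an unadjusted p under 0.05, against 5.68%. ins-23 had 4.36 to 4.73 in bcl-11(bon144), against 4.85 to 5.10 in bcl-11(bon125) (-0.51, SE 0.15, limma adjusted p 0.729). It was the 1 member that separated these groups, as 2.94% of genes did. The groups overlapped for ins-28, at 4.57 to 5.05 in bcl-11(bon144), against 4.88 to 5.37 with the other allele (-0.36, SE 0.16, limma's adjusted p 0.870), and for ins-33, which had the largest log2 fold change, 0.68 (SE 0.33). ins-22 had a log2 fold change of -0.32 (SE 0.23) with overlapping groups. With the replicate block 3 members, ins-23, ins-28 and ins-33, had an unadjusted p under 0.05, against 6.78% of genes. That of ins-33 was 0.0146 (limma, SE 0.23, adjusted p 0.676), and none was called.

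The difference of each allele's effect between the backgrounds was tested over 13131 genes with the members kept in both. For bon144, 0 of 18 members were called, against 0.0609% of genes, and 1 (ins-28, 0.39, SE 0.19, limma adjusted p 1.00) had an unadjusted p under 0.05, against 2.72%. For bon125, 0 of 18 were called, as 0% of genes, and 0 had an unadjusted p under 0.05, against 3.39%. For ins-23 the bon144 effect was -0.49 in the daf-2 background and -0.50 in the wild-type background, which share no libraries, a difference of 0.01 with an interval of -0.45 to 0.46. For ins-22 it was -0.38 in the daf-2 background and -0.30 in the wild-type background, a difference of -0.09 with an interval of -0.63 to 0.46. Both genes were weaker in the wild-type background (mean rlog 4.82 for ins-23 and 6.02 for ins-22) than in the daf-2 background (9.75 and 10.15). Rlog draws the differences of weaker genes further towards 0, so equal rlog effects need not be equal fold changes. ins-33 had the widest intervals, from -0.30 to 1.83 for bon125 and from -1.62 to 0.50 for bon144, so for ins-33 differences of more than 1 between the backgrounds lie inside these intervals.

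**Figure D4:**
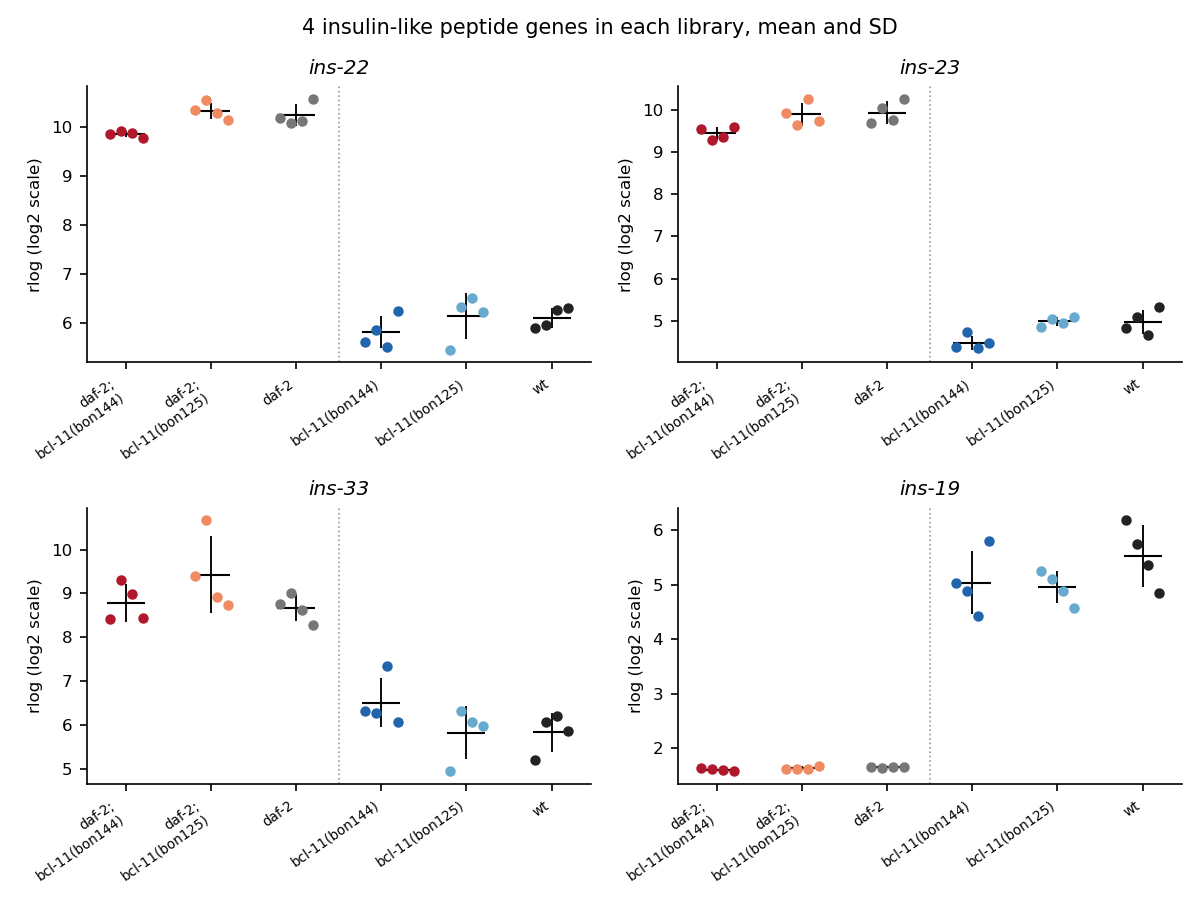
Rlog (vertical axes, log2 scale, not starting at 0) of ins-22, ins-23, ins-33 and ins-19 in each of 24 libraries by genotype, with the mean and SD in black (n = 4) and a dotted line between the separately normalised backgrounds. ins-22 and ins-23 are high with daf-2(e1370) and have their lowest mean with bon144 in each background, ins-33 has single high libraries, and ins-19 is near 1.6 in all libraries with daf-2(e1370).

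Beside the bon144 values of ins-22 and ins-23, the neuron markers had median log2 fold changes of -0.05 with the daf-2(e1370) background and 0.10 without it in the bon144 mutants relative to their controls, with 0 of 8 called in each. The 5 yolk protein genes had medians of -0.36 and -0.93 in the same comparisons, with 0 of 5 called in each. In bcl-11(bon144) against wt, 3 of the 5 (vit-3, vit-4 and vit-5) had an unadjusted p under 0.05, against 7.10% of genes. All 3 were lower in bcl-11(bon144). The mean of 6 sperm markers was 3.60, 4.59, 6.04 and 3.73 in bcl-11(bon144), against 3.74, 4.07, 4.55 and 4.49 in wt, so the high value belonged to replicate 3, and in daf-2 it was 5.08 in replicate 4 and 3.96 to 4.02 in the others. The part of these lists in the values of ins-22, ins-23 and ins-33 was not tested. ins-33 was highest in the same library as the mean of the hypodermis markers in 5 of the 6 genotypes, among them replicate 2 of daf-2;bcl-11(bon125) (10.67, where the marker mean was 9.28) and replicate 3 of bcl-11(bon144) (7.34, where it was 8.61). In bcl-11(bon125) it was not, with 4.95 in the library with the highest marker mean. This was noticed after the values were seen, and 1.55% of the genes kept in both backgrounds and 1 of the 18 members matched as often.

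Genes that act with the ligands were not called either. Of 13 genes from the receptor to DAF-16 (among them daf-2, the kinase genes age-1, pdk-1 and akt-1, the phosphatase gene daf-18 and daf-16), 0 were called in either direction in any of the 8 comparisons, and their median log2 fold change lay between -0.06 and 0.03. pdk-1 had the only unadjusted p-values under 0.05 among them, in limma, at -0.25 in bcl-11(bon144) against wt (adjusted p = 0.701), and at -0.24 for daf-2;bcl-11(bon144) compared with daf-2;bcl-11(bon125) (adjusted p = 1.00). Of 9 genes that process or release peptides, 0 were called in any comparison. The convertase gene kpc-1 had the largest change among them, -0.43 in bcl-11(bon144) against wt (SE 0.20, limma adjusted p 0.701). In that comparison 1 of the 9 genes had an unadjusted limma p under 0.05, with a lower level in the mutant, against 7.10% of all genes.

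How much the members varied between libraries of a genotype sets what could be seen. Their median SD was 0.14 for daf-2;bcl-11(bon144), 0.17 for daf-2;bcl-11(bon125), and 0.21 in their daf-2 control, against 0.13, 0.16 and 0.18 over all kept genes. In the wild-type background it was 0.24 in bcl-11(bon144), 0.17 in bcl-11(bon125) and 0.20 in wt, against 0.25, 0.18 and 0.18 over all kept genes. The members with the largest SD were ins-33 (0.87 in daf-2;bcl-11(bon125)), ins-11 (0.82 in daf-2) and ins-19 (0.57 in bcl-11(bon144) and in wt), and the smallest SDs belonged to members such as ins-17 (0.05 in bcl-11(bon144)) and ins-27 (0.04 in bcl-11(bon125)).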

How the data were processed

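The authors prepared non-stranded Smart-seq2 libraries from whole worms, made reads with bcl2fastq 2.20 and assigned them to WBcel235 transcripts with Kallisto (048.0 in the submitters' processing notes). They deposited a rlog value for each gene and library, on a log2 scale, in 2 tables normalised separately, 12 libraries each. The tool behind the rlog step is not given in the sources used here. Because counts were not used here, the depth per sample is unknown, no counting interval can be given, and the 4 libraries per genotype set the precision. Rlog shrinks differences of weak genes, so fold changes are understated.

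Groups and replicate numbers came from the labels. Members were matched by name in Ensembl release 115 (WBcel235), and all 20549 gene identifiers were found there. A gene was kept where its mean rlog in a table reached 3. Linear models with 3 genotype means per table were fitted with limma 3.58.1 in R 4.3.3 (eBayes with a trend, two-sided, Benjamini-Hochberg over all kept genes). The interaction used the means of 6 genotypes over genes kept in both tables. A gene was called at an adjusted p under 0.05 and a change above 1.5-fold, thresholds the study states. Intervals are 95% intervals of the fit. The fits were tested on simulated data.

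Members named are those called, the 3 with the largest change per mutant, the 3 highest per table, the 3 with the largest rise and fall in daf-2, and the best known ones (daf-28, ins-1, ins-4, ins-6, ins-7, ins-18). ins-10, ins-12, ins-28 and others named for counts were picked with their values in view. The members, gene lists and tests were chosen with earlier results of these data known. Alternatives were a replicate block, no filter, a minimum of 5, eBayes without the trend, library weights, only the groups compared, quantile normalisation, the adjusted p alone and leaving out each library. Same-numbered libraries were checked for pairing, which comes from the batch in the labels. Their deviations from the genotype means correlated with a mean r of 0.03 to 0.24 over genes. For libraries with different numbers the mean r was -0.08 to -0.01. The main fits had no batch term, and the replicate block is the alternative that includes it. No sequences are shown.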

Additional observations from a re-analysis of the deposited data

Results flagged for a closer look

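In 8 of 126 sets of 4 libraries (a kept member in a genotype), 1 library lay apart from the other 3 by Dixon's criterion on its gap relative to the range at a level of 95%, a share of 6.35%. Chance gives such a result in about 1 of 20 sets. In bcl-11(bon125), replicate 1 was low for ins-26 (4.48, the other 3 at 5.46 to 5.58) and for ins-6 (4.10, the others at 4.77 to 4.84), and replicate 2 was high for ins-29 (5.20, the others at 4.69 to 4.73). In daf-2, replicate 4 was low for ins-28 (5.84, the others at 6.00 to 6.01) and high for ins-36 (3.35, the others at 3.09 to 3.12) and ins-37 (4.24, the others at 3.79 to 3.86). ins-3 was low in daf-2;bcl-11(bon144) replicate 1 (7.28, the others at 7.56 to 7.60) and high in wt replicate 1 (7.29, the others at 7.05 to 7.08). No difference between the backgrounds in a member's response to an allele passed the test.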

How the results depend on the processing

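Over 147 alternative fits of the 8 comparisons, 0 had a called member. With the replicate block 0 members were called in each comparison. Of 191 alternative values of the log2 fold changes of the members named for their size, 190 kept the sign, and the lowest adjusted p was 0.169 (ins-23, bcl-11(bon144) against wt). Part of that count was fixed in advance. The block, the filters, the trend, the threshold and the choice of groups leave the log2 fold change itself as it was. The 1 reversal was ins-11 in daf-2;bcl-11(bon125) compared with daf-2, at 0.020 without daf-2 replicate 4, within a range of -0.62 to 0.020 over the left-out libraries. Leaving out 1 library gave -0.60 to -0.38 for ins-23, 0.40 to 0.81 for ins-33 and -0.75 to -0.28 for ins-19 in bcl-11(bon144) against wt, -0.80 to -0.36 for ins-19 in bcl-11(bon125) against wt, 0.34 to 0.99 for ins-33 and 0.078 to 0.33 for ins-35 in daf-2;bcl-11(bon125) compared with daf-2, and -0.57 to -0.38 for ins-23 and -0.43 to -0.27 for ins-22 in daf-2;bcl-11(bon144) compared with daf-2. In bcl-11(bon144) against wt, 3 members (ins-23, ins-28 and ins-33) had an unadjusted p under 0.05 with the replicate block, with 8.14% of genes, against 1 and 7.10% without it. For the bon144 difference between the backgrounds it was 0 with the block and 1 without it. For bon144 against bon125 it was 3 with the block and 2 without it in each background, and ins-33 was the member added. The shares of genes were 3.46% and 3.24% in the daf-2 background and 6.78% and 5.68% in the wild-type background. A minimum mean rlog of 5 or 7 left 16 or 7 members in the daf-2 background and 7 or 1 in the wild-type background. With a minimum of 5, 4 of 6 members were more than 1 higher in daf-2 than in wt, against 6.95% of 10214 genes. That count stayed at 12 of 18 when any daf-2 or wt library was left out (alternatives added after seeing the data). Depth is unknown. Weak members such as daf-28 and ins-1 were not in the main fits and were fitted only without the filter, where no member was called. At such levels rlog leaves little of a difference to be seen.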
